A study of Culter alburnus with 9 samples.

Results

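Heterozygous runx2b mutants (He) were compared with wild-type fish of the topmouth culter, Culter alburnus, across every locus and every annotated pathway. All 3 He libraries and all 3 wild-type (Ctrl) libraries of the count table were taken, 6 of the 9 libraries in the series, and the other 3 came from homozygous mutants (Ho), which are given only beside these values. Of the 29791 loci in the table, 14755 had enough counts to be tested. The fish were untreated F1 juveniles aged 2 months, bred from CRISPR/Cas9-edited founders that carried the same type of runx2b mutation and reared under the same conditions. Ctrl fish carried no mutant allele, He fish carried 1 and Ho fish carried 2. Each library held poly(A) RNA from the trunk muscle and myoseptal region of 1 fish. That tissue is enriched for the connective tissue sheets in which intermuscular bones (IBs) form, but it was not purified. Fish were picked by genotype, similar body size and an IB phenotype typical of their group, so they are not a random sample of their genotype. The labels do not say whether the fish of a group shared a tank or a day of dissection.

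runx2b encodes a fish copy of RUNX2, the transcription factor that commits precursor cells to the bone lineage. IBs are thin spicules that ossify within the myosepta, between blocks of fast and slow muscle fibres, without a cartilage model. A dissection of this region therefore holds muscle fibres together with tendon-like cells, bone cells, vessels, nerves, blood and often skin. In whole tissue of this kind, fewer cells of a type and less RNA per cell cannot be told apart.

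Libraries held 15952748 to 17393921 counts in Ctrl and 18129073 to 21009448 in He, and the 10 most abundant loci took 40.1% to 51.0% of counts in Ctrl and 44.6% to 52.4% in He. Levels are given as CPM, counts scaled to a common library size by the trimmed mean of M-values (TMM), whose factors ran from 0.836 to 1.40 in Ctrl and from 0.708 to 1.08 in He. The edited gene itself, on chromosome 20, lay near the limit of detection, at 0.489, 1.21 and 0 CPM in Ctrl 1 to 3 and 0, 0.353 and 0.191 CPM in He 1 to 3. Its log2 fold change was -1.56 ± 1.14 (SE) and -0.45 without Ctrl 2, so a difference was not detectable at this depth. Skin markers differed within the wild type. Over 63 tested skin epithelium loci the mean log2 CPM was 4.0, 3.16 and 1.47 in Ctrl 1 to 3 and 0.34, 1.54 and 0.85 in He 1 to 3. Ctrl 1 and Ctrl 2 stood far above every He fish, while Ctrl 3 stood just below He 2. Results are therefore also given without Ctrl 1 and Ctrl 2, and the part of skin in any difference below was not tested beyond that.

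No gene passed edgeR's quasi-likelihood test after adjustment. The smallest edgeR adjusted p was 0.359, 0% of the 14755 loci were called at an adjusted p under 0.05, and no DEG (a gene at an adjusted p under 0.01 that differs by 1 or more on the log2 scale) was found. At an unadjusted p under 0.05, edgeR gave 610 loci higher in He (4.13%) and 930 lower (6.30%). DESeq2 on the same counts gave an adjusted p to 13848 loci and called 87 higher (0.628%) and 165 lower (1.19%) at an adjusted p under 0.05. By DESeq2, 77 genes were DEGs, 22 upregulated and 55 downregulated in He. The 3 He fish all lay above the 3 Ctrl fish at 927 loci (6.28%) and below them at 1228 (8.32%). With 3 fish against 3, an exact two-sided permutation test of a single gene cannot go below p = 0.1. In what follows a gene is said to have risen or fallen only where DESeq2 called it, and log2 fold changes with their SE are edgeR's, over 3 fish per group.

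The DESeq2 calls rested on few fish. They numbered 17 higher and 7 lower without Ctrl 1, 17 and 40 without Ctrl 2, and 522 and 467 without Ctrl 3. Leaving out He 1 gave 64 and 60, leaving out He 3 gave 20 and 62, and leaving out Ho 1 gave 46 and 143. Ho 1 is in neither group compared but enters through the filter, the scaling and the shared spread. With both Ctrl 1 and Ctrl 2 left out, 10 higher and 2 lower calls were made. That setting keeps 1 Ctrl fish, which gives no spread of its own and is assumed to vary like the other groups. Leaving out a fish did not always lower the calls, as the 522 and 467 without Ctrl 3 show. The cause of the few calls without Ctrl 1 and Ctrl 2 was not tested. Medians and folds of that setting are therefore given below rather than its calls alone. Under edgeR the loci lower in He at an unadjusted p under 0.05 numbered 525 without Ctrl 1, and those higher numbered 1359 without Ctrl 3. Differences were larger at low levels. When loci were cut into 4 equal bins by level, in the lowest bin the median absolute log2 fold change was 0.50, with 2.93% of loci higher and 9.19% lower at an unadjusted p under 0.05, and in the highest bin it was 0.26, with 5.48% higher and 2.95% lower. The direction of the whole profile depended on the scaling. The median log2 fold change over all loci was -0.01 with TMM, -0.41 with library totals alone and -0.28 on log2(TPM + 1), and the split of loci at an unadjusted p under 0.05 then became 135 higher and 1922 lower with library totals, and 102 higher and 2206 lower with TPM. Where another scaling is named below, values are given relative to those medians.

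Of the 252 DESeq2 calls, 15 were kept whichever of the 9 libraries was left out, 10 higher and 5 lower in He, and none of the 15 overlapped between the groups. The call with the smallest adjusted p was a fast skeletal myosin heavy chain, MYH1s (ABG768_023108, chromosome 5, 39015369 to 39026611), one of the motor proteins of the thick filament in fast muscle fibres. MYH1s ABG768_023108 measured 35.4, 10.4 and 52.7 CPM in Ctrl 1 to 3 and 519, 821 and 6080 CPM in He 1 to 3. Every He fish lay above every Ctrl fish, with He 3 far above the other He fish. It rose by a log2 fold change of 6.24 ± 1.17 (DESeq2 adjusted p = 3.58e-10), and by 4.37 without He 3. The next locus in the cluster, MYH1s ABG768_023109, had 185, 60.6 and 374 CPM in Ctrl and 939, 1508 and 10872 CPM in He. It rose with the same order of fish, by a log2 fold change of 4.43 ± 1.13 (DESeq2 adjusted p = 0.0103), a call lost without Ctrl 1 (adjusted p = 0.163) or Ctrl 2 (adjusted p = 0.144). The assembled myosin locus Myh4 MSTRG.3895, which has no position on the genome, had 0, 1 and 0 counts in Ctrl and 4, 1940 and 13002 counts in He. The He fish thus spanned from near absence in He 1, close to the Ctrl fish, to a high level in He 3. This split of the fish is not the split by genotype, and loci that share it are given further on. For Myh4 MSTRG.3895 the ratio over the groups was 16596 (95% exact interval 2978 to 655554, which covers counting error only, DESeq2 adjusted p = 3.07e-06). This was the single one of the 15 calls that DESeq2 still made without both Ctrl 1 and Ctrl 2 (adjusted p = 0.0472).

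Not every fast myosin behaved this way. The family was chosen for a closer look after these values were seen, and the counting could have split reads between its near-identical copies, so single loci are uncertain. Of 20 fast myosin heavy chain loci, 18 were tested and 5 rose by DESeq2, beside 0.628% of all loci, while none fell. The median log2 fold change of the 18 was 1.83, which was 1.81 relative to all loci under library totals and 1.00 under TPM, 1.65 without both Ctrl 1 and Ctrl 2 and 1.05 without He 3. The most abundant member, MYH1s ABG768_023107, took 50.3%, 41.9% and 63.3% of fast myosin counts in Ctrl 1 to 3 and had a log2 fold change of 0.36 ± 0.51. It stood at 40918, 23623 and 121979 CPM in Ctrl and 95948, 79302 and 64111 CPM in He, high in every fish. Its neighbour MYH1s ABG768_023106 had 30108, 15516 and 53922 CPM in Ctrl and 99068, 40154 and 927 CPM in He. He 1 was above every Ctrl fish, He 2 within the Ctrl range and He 3 far below it. On chromosome 10, MYH1s ABG768_001431 had 309, 3327 and 1125 CPM in Ctrl and 600.0, 1258 and 21687 CPM in He. There He 3 was far above all other fish and He 1 and He 2 lay within the Ctrl range, and He 3 was highest at ABG768_023108 and ABG768_023109 too. As a share of all counts the fast family took 10.5%, 7.89% and 16.1% in Ctrl and 17.4%, 15.6% and 12.5% in He, ranges that overlap. The slow and cardiac myosin heavy chains, of fibres that contract slowly and of the heart, had 8 tested loci of 11, none at an unadjusted p under 0.05, with a median of -0.25. The plot of fast myosin loci by fish shows the spread within He.

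**Figure D1:**
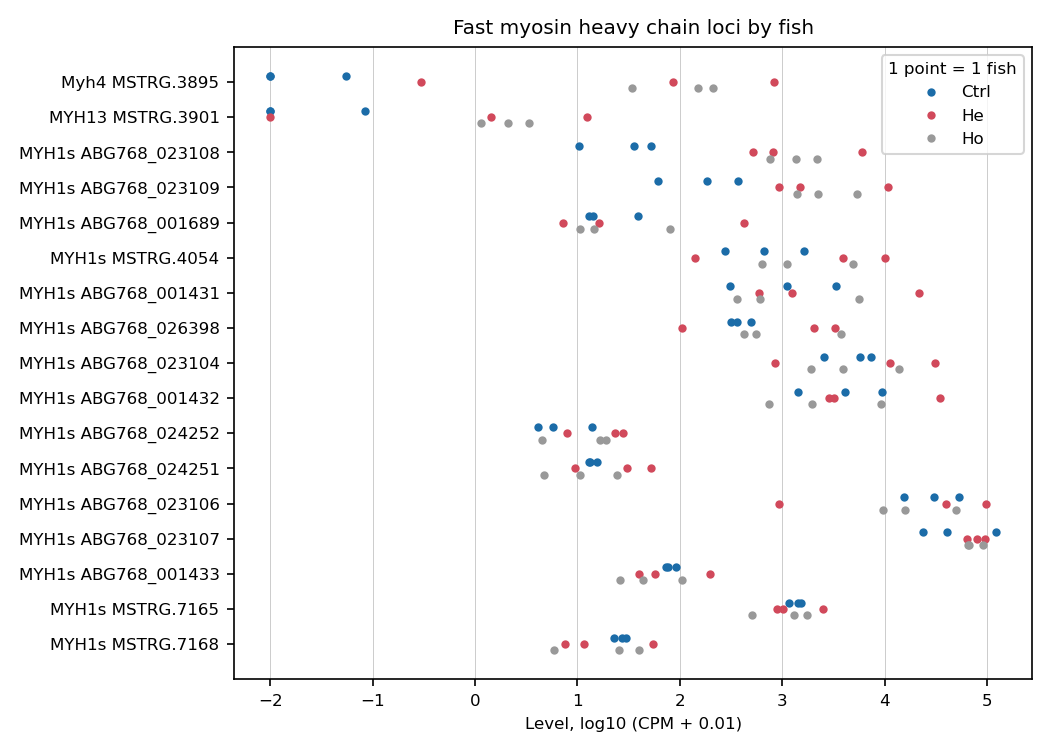
Level of 17 fast myosin heavy chain loci, those tested with over 100 counts in some Ctrl or He library, as log10 of CPM plus 0.01 (x axis), 1 point per fish of Ctrl, He and Ho. MYH1s ABG768_023108 and ABG768_023109 and Myh4 MSTRG.3895 show He points right of all Ctrl points, whereas MYH1s ABG768_023106 has He 3 at 927 CPM and He 1 at 99068 CPM.

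Among the other stable upregulated genes was PFKFB3 (chromosome 4), an enzyme that makes the activator of glycolysis fructose-2,6-bisphosphate. PFKFB3 had 1.91, 1.88 and 2.23 CPM in Ctrl and 17.8, 7.62 and 95.8 CPM in He. Ctrl fish lay close together and He 3 was far above the other He fish. PFKFB3 rose by a log2 fold change of 4.33 ± 1.08 (DESeq2 adjusted p = 0.000268), and by 2.68 without He 3. SLC16A9 (chromosome 17), a transporter of the monocarboxylate family, had 2.00, 1.61 and 2.08 CPM in Ctrl and 22.6, 12.8 and 6.56 CPM in He. Here He 1 was highest and He 3 lowest, with no overlap. SLC16A9 rose by a log2 fold change of 2.88 ± 0.63 (DESeq2 adjusted p = 0.00101). PFKFB3 and SLC16A9 were the only DESeq2 calls in a list of glucose and glycogen genes. Of its 47 tested loci, 10 had a positive log2 fold change. The list's median was -0.32, and 0.00 without both Ctrl 1 and Ctrl 2. Gimap9 (chromosome 3), named for a GTPase of immune cells although its closest protein match is IMAP family member 8-like, had 0.756, 1.84 and 1.78 CPM in Ctrl and 7.03, 9.96 and 6.05 CPM in He. All He fish were well above the Ctrl range, and it rose by 2.41 ± 0.44 on the log2 scale (DESeq2 adjusted p = 0.000395). The assembled locus MSTRG.3376, described as sorting nexin-25, was also among them and is given with like loci further on, and the remaining stable calls higher in He had no informative name. ABG768_014796 (chromosome 21) measured 0.222, 0 and 0.149 CPM in Ctrl and 1.07, 2.12 and 2.42 CPM in He. The assembled loci MSTRG.16400, MSTRG.7098 and MSTRG.164 had log2 fold changes of 5.40 ± 0.96, 2.29 ± 0.33 and 3.16 ± 0.50, each with all He fish above all Ctrl fish.

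The 5 stable downregulated genes were AQP3, COL17A1, PTGDS, OSBPL6 and SLC25A22. AQP3 (chromosome 5), a water and glycerol channel of epithelia, had 41.4, 15 and 2.08 CPM in Ctrl and 0.853, 1.01 and 0.827 CPM in He. He fish were tightly grouped and Ctrl fish ran down towards them in the order of their skin markers. AQP3 fell by 4.43 ± 0.91 on the log2 scale (DESeq2 adjusted p = 1.75e-05), and by 3.24 without Ctrl 1. COL17A1 (chromosome 13), the collagen of the hemidesmosomes that anchor epidermis to its basement membrane, had 80.0, 47.6 and 4.98 CPM in Ctrl and 1.49, 3.57 and 0.509 CPM in He. The same order of Ctrl fish held, with Ctrl 3 just above He 2. COL17A1 fell by 4.53 ± 1.07 (DESeq2 adjusted p = 0.000149). SLC25A22 (chromosome 24), a mitochondrial glutamate carrier, differed in that its Ctrl fish were alike. SLC25A22 had 4.80, 4.98 and 3.94 CPM in Ctrl and 0.711, 0.925 and 1.21 CPM in He, and it fell by 2.26 ± 0.34 (DESeq2 adjusted p = 8.59e-05). PTGDS (chromosome 23), named for the lipocalin-type prostaglandin D synthase and matched to a lipocalin-like protein, had 342, 236 and 101 CPM in Ctrl and 31.3, 66.5 and 28.4 CPM in He. OSBPL6 (chromosome 12), an oxysterol-binding protein of the OSBP family, had 7.56, 3.63 and 3.56 CPM in Ctrl and 0.355, 0.881 and 1.15 CPM in He. Both fell without overlap, by 2.43 ± 0.49 and 2.61 ± 0.47 on the log2 scale (DESeq2 adjusted p = 0.000371 and 0.000414).

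Among the 15 named genes with the smallest p of those without overlap, many higher in He showed small and even differences. mvd (chromosome 18), which makes isopentenyl diphosphate in the mevalonate pathway, had 3.24, 2.87 and 2.60 CPM in Ctrl and 6.54, 6.26 and 5.54 CPM in He. Fish of a group lay close together, and mvd rose by 1.07 ± 0.22 on the log2 scale (DESeq2 adjusted p = 0.0124). Lin7a (chromosome 4), a scaffold protein of cell junctions and synapses, had 3.73, 3.54 and 4.60 CPM in Ctrl and 7.03, 7.49 and 6.94 CPM in He. IMP3 (chromosome 2), a component of the U3 particle that processes ribosomal RNA, had 7.82, 9.01 and 9.36 CPM in Ctrl and 14.5, 17.4 and 14.3 CPM in He. DPY30 (chromosome 1), a subunit of histone H3 methyltransferase complexes, had 5.96, 5.06 and 4.83 CPM in Ctrl and 9.02, 9.17 and 8.34 CPM in He. With TMM scaling, the gap between groups in Lin7a, IMP3 and DPY30 was wider than the spread within either. They rose by 0.86 ± 0.19, 0.82 ± 0.19 and 0.74 ± 0.18 (DESeq2 adjusted p = 0.0203, 0.0145 and 0.0392). The TMM factors ran from 1.40 in Ctrl 2 to 0.708 in He 1. DPY30 counted 134 in Ctrl 1 and 127 in He 1, a larger library, so its groups overlapped with library totals alone. FOXO4 (chromosome 14), a transcription factor held back by insulin signalling, had 10.7, 11.4 and 14.6 CPM in Ctrl and 28.1, 17.5 and 27.9 CPM in He, with He 2 nearest to Ctrl. DUSP14 (chromosome 2), a MAP kinase phosphatase whose closest protein match is the related phosphatase 18, had 5.73, 6.77 and 8.32 CPM in Ctrl and 18.1, 12.2 and 13.4 CPM in He. Both rose, by 1.00 ± 0.23 and 1.07 ± 0.22 (DESeq2 adjusted p = 0.0145 and 0.00778). pclaf (chromosome 24), a PCNA-binding factor of DNA replication, had 0.489, 0.628 and 0.520 CPM in Ctrl and 1.14, 2.47 and 2.23 CPM in He and rose by 1.83 ± 0.39 (DESeq2 adjusted p = 0.0226). The others were mpv17l, spns3 and loci whose names TRIM35 and FJX1 their closest protein matches do not bear out. Their log2 fold changes were 2.45 ± 0.47, 1.90 ± 0.43, 1.15 ± 0.24 and 2.22 ± 0.50. The DESeq2 calls of mvd, Lin7a, IMP3, DPY30, FOXO4, DUSP14, pclaf, mpv17l, spns3, TRIM35 and FJX1 were each lost without Ctrl 1, without Ctrl 2 and without at least 1 He fish, with adjusted p of up to 0.336 (DPY30 without Ctrl 2).

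**Figure D2:**
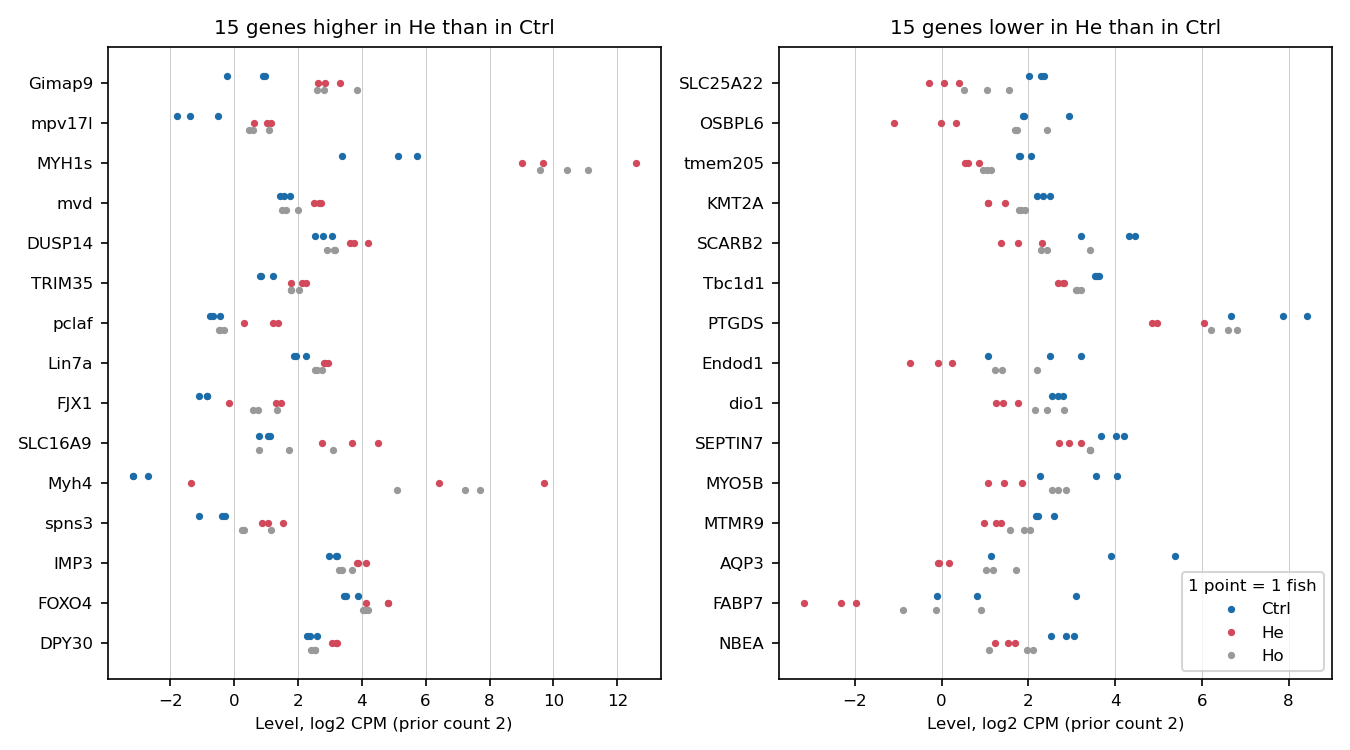
Level as log2 CPM (x axis) of the 15 genes higher (left) and the 15 lower (right) in He with the smallest p among named genes without overlap, 1 point per fish of Ctrl, He and Ho. Genes such as mvd and Tbc1d1 show tight groups, whereas AQP3 and FABP7 show Ctrl fish spread over a wide range.

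The genes lower in He by the same rule fell into those with even Ctrl fish and those that followed the skin markers. In the first kind were genes of many functions. Tbc1d1 (chromosome 1), which governs glucose transporter traffic in muscle, had 12.2, 12 and 11.4 CPM in Ctrl and 6.96, 6.92 and 6.30 CPM in He. dio1 (chromosome 8), a deiodinase that activates thyroid hormone, had 6.36, 5.69 and 6.91 CPM in Ctrl and 2.56, 2.29 and 3.31 CPM in He. KMT2A (chromosome 15), a histone H3 lysine methyltransferase, had 4.49, 5.60 and 4.90 CPM in Ctrl and 1.99, 2.64 and 1.97 CPM in He. None of the 3 overlapped between groups, and they fell by 0.82 ± 0.16, 1.22 ± 0.25 and 1.17 ± 0.22 on the log2 scale (DESeq2 adjusted p = 0.00627, 0.0126 and 0.0103). SEPTIN7, a cytoskeletal GTPase matched to septin 15, fell from 12.6, 18.4 and 16.0 CPM to 6.39, 9.17 and 7.51 CPM (DESeq2 adjusted p = 0.00883). tmem205, MTMR9, a member of the myotubularin family, and NBEA, a protein of vesicle traffic, also fell, by 1.28 ± 0.24, 1.16 ± 0.24 and 1.37 ± 0.30 (DESeq2 adjusted p = 0.0116, 0.0191 and 0.0158). Each of these 7 calls was lost without Ctrl 2 (adjusted p up to 0.255) and without He 1 (up to 0.12), all but SEPTIN7 without Ctrl 1 (up to 0.277), and each without He 2 or He 3 as well. In the second kind, MYO5B (chromosome 21), a motor of membrane recycling in epithelia, had 16.3, 11.8 and 4.68 CPM in Ctrl and 2.63, 3.53 and 1.97 CPM in He. SCARB2, a lysosomal membrane protein, had 21.9, 19.7 and 9.21 CPM in Ctrl and 2.49, 3.30 and 4.84 CPM in He, and Endod1 and FABP7, a fatty acid binding protein, had the same order of Ctrl fish. They fell by log2 values of 2.01 ± 0.41, 2.26 ± 0.43, 2.78 ± 0.56 and 5.46 ± 1.17 (DESeq2 adjusted p = 0.00336, 0.000734, 0.00121 and 0.000696). For MYO5B, SCARB2 and Endod1 the calls were lost without Ctrl 1 (adjusted p = 0.139, 0.0567 and 0.117), for MYO5B also without Ctrl 2 (0.0737) or He 3 (0.0589), and for FABP7 no adjusted p was then given.

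Many of the downregulated genes with the largest folds were genes of epithelia. ANO1, a chloride channel, had 23.2, 11.2 and 0.520 CPM in Ctrl and 0.142, 0.264 and 0.509 CPM in He. PPL, the desmosomal linker periplakin, had 52.4, 22.2 and 1.56 CPM in Ctrl and 0, 0.793 and 0.127 CPM in He. esrp1, an epithelial splicing factor, had 26.7, 9.50 and 1.11 CPM in Ctrl and 0.142, 0.705 and 0.127 CPM in He. All lay in the order Ctrl 1, Ctrl 2, Ctrl 3, with Ctrl 3 close to the He fish. They fell by DESeq2 (adjusted p = 0.000219, 0.00457 and 0.000426), as did Krt42, an epithelial keratin, MAL, a protein of apical membranes, and CDCP1, a surface protein of epithelial cells (adjusted p = 0.00295, 0.000696 and 0.00654). AHNAK had 297 counts over Ctrl and 3 over He, a ratio of 89.2 (95% exact interval 30.2 to 435). ABG768_007012 had 548, 72 and 3 counts in Ctrl fish and none in He, at least 187-fold lower when the He group is set at 3 counts in all. ANO1, PPL, esrp1, MAL and AHNAK lost their call without Ctrl 1 (adjusted p = 0.0509, 0.183, 0.0977, 0.101 and 0.0725), and CDCP1, Krt42 and ABG768_007012 were then given no adjusted p. PPL also lost it without Ctrl 2 (0.0728) or He 3 (0.0684), esrp1 without He 3 (0.0847) CDCP1 without He 3 (0.0553), and ABG768_007012 without Ctrl 2, He 1, He 2, He 3 or Ho 1 (up to 0.229).

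Lists of marker genes for the cell types that such a dissection can hold, and for functions of muscle, described the same libraries by group. The lists drew on knowledge of earlier results of these data. Of the 63 tested loci of the skin epithelium list, 43 (68.3%) were lower in He at an unadjusted p under 0.05, beside 6.30% of all loci, and none was higher. DESeq2 called 26 lower, with a median log2 fold change over the list of -2.71. Without both Ctrl 1 and Ctrl 2 that median was -0.46 and 0 of the 63 reached an unadjusted p under 0.05. Summed over all 98 skin loci, of which 16 were at 0 in every Ctrl fish and 24 in every He fish, the level was 976 to 5530 CPM in Ctrl and 496 to 938 CPM in He. Among the keratins, which share sequence so that reads can be split between copies, KRT1 ABG768_012218 had 1026, 443 and 186 CPM in Ctrl and 32.8, 115 and 68.5 CPM in He, and it fell by 2.93 ± 0.80 on the log2 scale (DESeq2 adjusted p = 0.00529). The desmosomal cadherin dsg2.1 fell likewise, from 81.8, 24.0 and 6.39 CPM to 1.71, 5.24 and 1.59 CPM (DESeq2 adjusted p = 0.00164). For both the Ctrl fish followed the order of the skin list, and both calls were lost without Ctrl 1 (adjusted p = 0.209 and 0.19), that of KRT1 also without He 1 (0.052).

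Pigment cell genes were lower in the same direction but by less. With TMM scaling, all 3 He fish lay below all 3 Ctrl fish in the mean over 13 loci, at -0.23, 0.56 and 0.45 log2 CPM against 1.18, 1.06 and 0.60. Ctrl 3 stood just above He 2, and this order of fish was taken under TMM alone. tyrp1, an enzyme of melanin synthesis, had 3.33, 3.36 and 2.45 CPM in Ctrl and 0.497, 1.19 and 1.34 CPM in He. Ctrl 1 and Ctrl 2 were alike in tyrp1 and Ctrl 3 was lowest of its group, as in the skin list. tyrp1 fell by 1.58 ± 0.38 on the log2 scale (DESeq2 adjusted p = 0.0235, lost without Ctrl 1, Ctrl 2, He 1, He 2, He 3 or Ho 1, up to 0.343 without Ctrl 1). MLANA and PMEL, proteins of the melanosome, fell too (DESeq2 adjusted p = 0.0219 and 0.0153), each with Ctrl 1 and Ctrl 2 highest. Without Ctrl 1 their adjusted p was 0.517 and 0.281, and both calls were also lost without Ctrl 2, He 1 or He 3, that of MLANA without He 2 too. The list's median was -0.48, and -0.18 without both of those fish, and its 27 loci, 2 of them at 0 in every Ctrl fish and 3 in every He fish, summed to 28.7 to 45.4 CPM in Ctrl and 18.1 to 27.4 CPM in He. Liver genes were barely detected, at 26.5 to 37.7 CPM summed in Ctrl and 18.7 to 21.7 CPM in He, with 31 of 67 loci at 0 in each group.

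Fast muscle genes lay higher in He as a list. With TMM scaling, all 3 He fish were above all 3 Ctrl fish in the mean over 31 loci. They stood at 9.75, 9.91 and 10.58 log2 CPM against 9.04, 9.41 and 9.48. This order of fish was taken under TMM alone, whose factor was lowest in He 1 (0.708). Of the 31, 26 had a positive log2 fold change and 5 (16.1%) had all He fish above all Ctrl fish, beside 6.28% of all loci. Those 5 included the myosin loci Myh4 MSTRG.3895, described above, and Myh4 MSTRG.3900. The median was 0.52, 0.48 relative to all loci under library totals and 0.20 under TPM, and 0.11 without both Ctrl 1 and Ctrl 2. TNNI2 (ABG768_018434), the inhibitory troponin of fast fibres, had 2822, 4935 and 7931 CPM in Ctrl and 9391, 11746 and 14380 CPM in He. He fish were all above the highest Ctrl fish, but the log2 fold change of 1.18 ± 0.45 did not pass DESeq2 (adjusted p = 0.193). Slow and cardiac-type muscle genes had a median of -0.37 over 37 loci, -0.25 without both fish. ATP2A2, the calcium pump of slow fibres and heart, had 1946, 1377 and 1505 CPM in Ctrl and 544, 444 and 533 CPM in He. Its groups were far apart and even within, with a log2 fold change of -1.67 ± 0.52 that missed the threshold (DESeq2 adjusted p = 0.0564). MYL2, the regulatory light chain of slow and cardiac myosin, had 34.9, 16.5 and 20.2 CPM in Ctrl and 11.8, 13.2 and 11.9 CPM in He. Genes of fat use and oxidative energy, which slow fibres favour, had a median of -0.35 over 39 loci, and in 7 (17.9%) all He fish lay below all Ctrl fish, beside 8.32% of all loci. Among them Acadl, an acyl-CoA dehydrogenase, had 88.7, 85.7 and 72.4 CPM in Ctrl and 58.9, 27.7 and 34.9 CPM in He, and none of the 39 passed DESeq2.

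Among muscle growth and atrophy genes, 6 of 32 (18.8%) were higher in He at an unadjusted p under 0.05, beside 4.13% of all loci, and 1 was lower. The list's median of 0.27 was 0.08 without both Ctrl 1 and Ctrl 2, where 1 of the 32 was higher at that threshold. CAPN3 ABG768_014187, the muscle calpain, had 43.3, 27.6 and 30.7 CPM in Ctrl and 78.4, 68.2 and 84.3 CPM in He. It rose by 1.18 ± 0.28 on the log2 scale (DESeq2 adjusted p = 0.0081, lost without Ctrl 2 at 0.145, He 1 at 0.0782 or He 3 at 0.0971). PAX7, a marker of muscle stem cells, had 2.13, 2.11 and 2.45 CPM in Ctrl and 4.83, 2.95 and 4.20 CPM in He, and SMYD1, a methyltransferase of sarcomere assembly, had 56.7, 45.0 and 46.1 CPM in Ctrl and 72.4, 78.0 and 69.4 CPM in He. Neither passed DESeq2 (adjusted p = 0.188 and 0.126), though no He fish overlapped a Ctrl fish. bves, a membrane protein of striated muscle and junctions, had 32.3, 24.7 and 43.3 CPM in Ctrl and 55.8, 71.5 and 77.2 CPM in He and rose by 1.03 ± 0.26 (DESeq2 adjusted p = 0.0115, lost without Ctrl 1 at 0.181, Ctrl 2 at 0.132, He 2 at 0.0648 or He 3 at 0.134). Stress-inducible genes were uneven between fish. hsp70 (ABG768_019361) had 1.16, 2.96 and 13.4 CPM in Ctrl and 36.5, 19.4 and 252 CPM in He. He 3 was far above the rest, and hsp70 did not pass DESeq2 (adjusted p = 0.072).

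**Figure D3:**
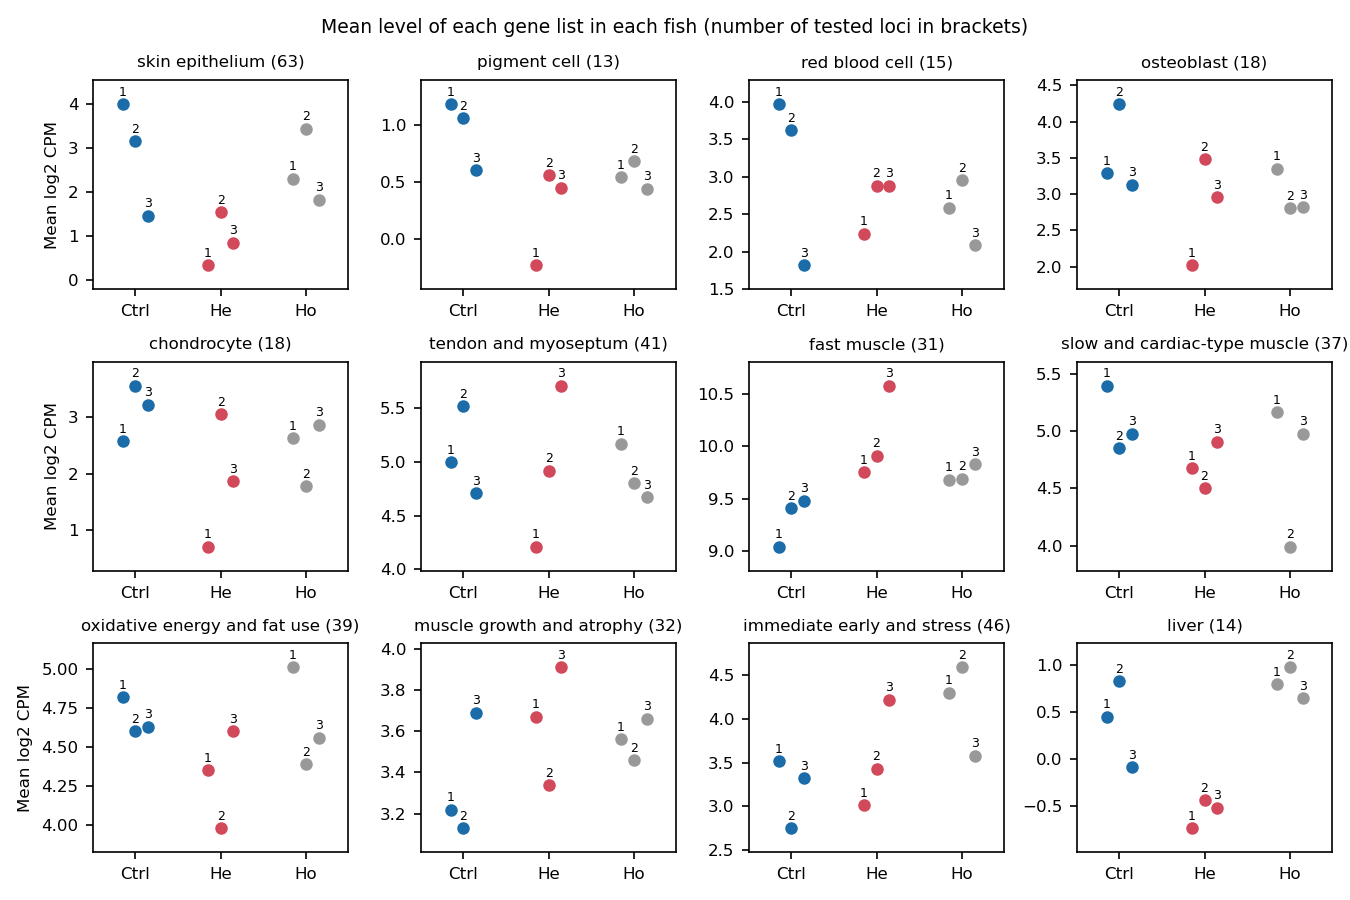
Mean log2 CPM (y axes) of 12 gene lists in each fish, by genotype, with the replicate number beside each point. Skin epithelium stands at 4.0, 3.16 and 1.47 in Ctrl 1 to 3, and fast muscle, with TMM scaling, is above all Ctrl fish in every He fish.

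Skeletal and connective tissue lists varied between fish of a genotype. Osteoblast loci, 18 of them tested, had a median of -0.69, which was 0.01 without Ctrl 2 and 0.19 without both Ctrl 1 and Ctrl 2, and the list's mean overlapped between groups. mgp, matrix Gla protein, an inhibitor of calcification made by cartilage, vessels and bone, was the 1 osteoblast-list gene that DESeq2 called. It had 18.7, 16.3 and 30.8 CPM in Ctrl and 3.55, 7.71 and 6.56 CPM in He. Here Ctrl 3, the fish with the least skin signal in its group, was highest, and mgp fell by 1.87 ± 0.42 on the log2 scale (DESeq2 adjusted p = 0.00584, lost without Ctrl 1 at 0.0565 or He 1 at 0.0679). ankh, a pyrophosphate exporter, had 3.73, 2.60 and 2.38 CPM in Ctrl and 1.14, 1.50 and 1.21 CPM in He (DESeq2 adjusted p = 0.0798). Chondrocyte loci had a median of -1.13 over 18, with He 1 lowest at a mean of 0.70 log2 CPM and none called. That median was -0.88 without both Ctrl 1 and Ctrl 2. Osteoclast loci had a median of -0.39 over 15, which was 0.15 without both Ctrl 1 and Ctrl 2. DESeq2 called 1 of them lower, the integrin ITGB3, which is given further on. The chloride transporter Clcn7, needed for bone resorption, had 9.16, 5.92 and 6.76 CPM in Ctrl and 4.83, 4.27 and 3.88 CPM in He without passing DESeq2 (adjusted p = 0.218). The tendon and myoseptum list, 41 loci, had a median of 0.16, which was -0.09 relative to all loci under TPM and -0.53 without He 3. It was 0.47 without He 1 and 0.53 without both Ctrl 1 and Ctrl 2. Its collagen Col5a2 fell from 17.8, 41.4 and 6.76 CPM to 0.924, 7.14 and 3.31 CPM (DESeq2 adjusted p = 0.0442, lost without Ctrl 1, Ctrl 2, He 1, He 3 or Ho 3, up to 0.633 without Ctrl 2), with ranges that overlapped. Endothelial loci had a median of -0.11 over 24. kdr, a receptor of vascular endothelial growth factor, had 9.60, 10.3 and 6.24 CPM in Ctrl and 3.27, 4.67 and 3.76 CPM in He and fell by 1.16 ± 0.27 (DESeq2 adjusted p = 0.0303, lost without Ctrl 1 at 0.363, Ctrl 2 at 0.336, He 1 at 0.235, He 3 at 0.207 or Ho 3 at 0.0619).

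CHST15 and Chst7 are sulfotransferases listed under the synthesis of chondroitin and dermatan sulfate, chains of cartilage and bone matrix. CHST15 had 2.67, 1.26 and 0.594 CPM in Ctrl and 0, 0.132 and 0 CPM in He, and it fell by DESeq2 (adjusted p = 0.00561, 0.0528 without He 3 and not given without Ctrl 1). Its Ctrl fish lay in the order of their skin markers. Chst7 had 24.2, 29.5 and 14.4 CPM in Ctrl and 6.04, 8.99 and 13.4 CPM in He without passing (DESeq2 adjusted p = 0.113). Blood and immune lists showed few calls. Red blood cell loci had a median of -0.87 over 15, which was 0.48 without both Ctrl 1 and Ctrl 2, and none was called. In the lymphocyte list, with a median of -0.34 over 23 and 0.48 without both fish, Gimap9 and the assembled CD4 locus MSTRG.11347 rose (DESeq2 adjusted p = 0.000395 and 0.0402). CD4 MSTRG.11347, named for a T cell co-receptor, had 1.69, 1.39 and 2.23 CPM in Ctrl and 4.90, 5.46 and 2.80 CPM in He, a call lost on leaving out any library but Ctrl 3 or He 3 (adjusted p up to 0.361, without Ctrl 2). In the fat cell list SLC7A10, an amino acid transporter, fell from 3.33, 2.51 and 2.30 CPM to 0.355, 1.37 and 0.764 CPM (DESeq2 adjusted p = 0.0402), a call lost on leaving out any library but Ctrl 3 or He 2 (adjusted p up to 0.477, without Ctrl 1).

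Across annotated pathways, medians over the tested members were small. Of 232 KEGG pathways with 15 to 300 tested members, 183 had a median log2 fold change below 0 and 49 above, from -0.56 to 0.37, and genes belong to several pathways, so these are not independent. With TMM scaling, all 3 He fish lay above all 3 Ctrl fish in the mean of 7 of the 232 pathways and below them in 64. This order of fish was taken under TMM alone, and it was not counted without Ctrl 1 and Ctrl 2. The highest median was that of the ribosome, the protein and RNA machine that makes proteins. Of its 134 tested genes 121 had a positive log2 fold change, with a median of 0.37, which was 0.20 relative to all loci under TPM and 0.10 without both Ctrl 1 and Ctrl 2. Rpl27a, of the large subunit, had 420.3, 400.2 and 627 CPM in Ctrl and 656, 669 and 776 CPM in He. rpl32 had 495, 526 and 715 CPM in Ctrl and 792, 735 and 981 CPM in He. The He fish lay above the Ctrl fish in both but by little beside the spread, and none of the 134 passed DESeq2. In ribosome biogenesis, with a median of 0.20 over 72 genes and 0.01 without He 2, IMP3 passed. RPP25L, a subunit of RNase P, had 1.29, 1.52 and 1.26 CPM in Ctrl and 2.49, 2.56 and 3.25 CPM in He (DESeq2 adjusted p = 0.105).

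Protein export, the targeting and cleavage of secreted proteins, had the largest share of loci without overlap among the pathways described. In 10 of its 22 tested genes (45.5%) all He fish lay above all Ctrl fish, beside 6.28% of all loci, and its median was 0.24, between 0.20 and 0.32 on leaving out any Ctrl or He fish, 0.33 without both Ctrl 1 and Ctrl 2 and 0.09 relative to all loci under TPM. SRP19, a protein of the signal recognition particle, had 10.2, 8.02 and 10.5 CPM in Ctrl and 13.2, 13.8 and 13.8 CPM in He. SPCS3, of the signal peptidase complex, had 7.91, 7.98 and 7.58 CPM in Ctrl and 10, 11.4 and 10.2 CPM in He. Both had tight groups, with log2 fold changes of 0.51 ± 0.17 and 0.43 ± 0.18 that did not pass DESeq2 (adjusted p = 0.188 and 0.421). RNA polymerase, homologous recombination and base excision repair had medians of 0.23, 0.22 and 0.26. POLR2F, a subunit shared by RNA polymerases, had 9.20, 8.02 and 9.28 CPM in Ctrl and 14.6, 14.5 and 11.8 CPM in He (DESeq2 adjusted p = 0.0729), and Rad50, of the complex that senses DNA breaks, had 3.56, 4.12 and 4.23 CPM in Ctrl and 7.25, 6.43 and 7.32 CPM in He (DESeq2 adjusted p = 0.163). NUDC, a chaperone that binds dynein, had 12.1, 11.7 and 14.0 CPM in Ctrl and 20.7, 21.3 and 20.9 CPM in He, and it rose by 0.73 ± 0.18 (DESeq2 adjusted p = 0.0155, lost without Ctrl 1, Ctrl 2, He 1, He 2 or He 3, up to 0.281 without Ctrl 1).

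**Figure D4:**
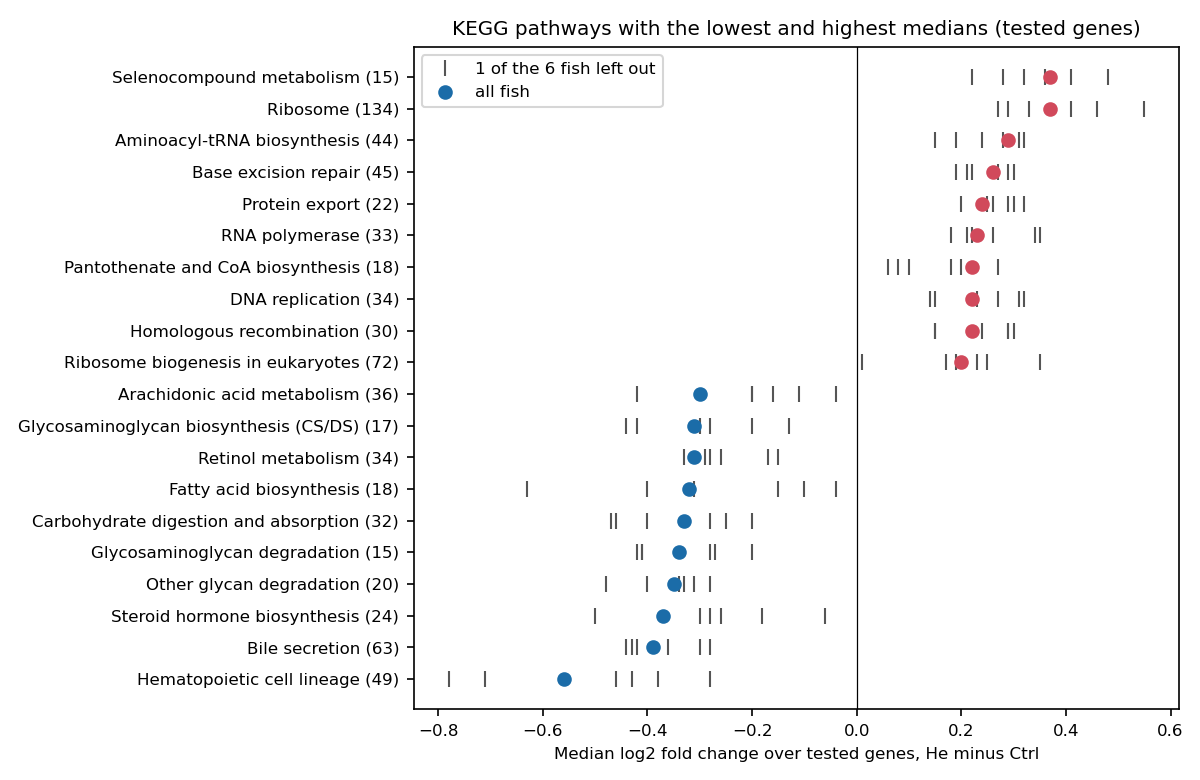
Median log2 fold change, He minus Ctrl, over the tested genes of the 10 KEGG pathways with the highest and the 10 with the lowest medians, with the number of genes in brackets and ticks for the values on leaving out each Ctrl or He fish in turn. Ribosome stands at 0.37 and hematopoietic cell lineage at -0.56.

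The lowest KEGG medians were those of hematopoietic cell lineage (-0.56), bile secretion (-0.39), steroid hormone biosynthesis (-0.37) and the degradation of glycans (-0.35) and glycosaminoglycans (-0.34). The first was 0.11 without both Ctrl 1 and Ctrl 2. Its integrin ITGB3 fell from 10.6, 8.56 and 1.04 CPM to 0.782, 1.19 and 0.636 CPM (DESeq2 adjusted p = 0.0402, lost without Ctrl 1, Ctrl 2, He 1, He 2, He 3 or Ho 3, up to 0.509 without Ctrl 1). In bile secretion, 11 of 63 genes (17.5%) had all He fish below all Ctrl fish, beside 8.32% of all loci. ABCC4, an exporter of organic anions and cyclic nucleotides, had 7.38, 7.26 and 6.98 CPM in Ctrl and 2.49, 3.48 and 3.25 CPM in He. Ctrl fish were nearly equal, and ABCC4 fell by 1.22 ± 0.29 on the log2 scale (DESeq2 adjusted p = 0.0388, lost without Ctrl 1, Ctrl 2, He 1, He 2, He 3 or Ho 1, up to 0.332 without Ctrl 1). ADCY9, an adenylyl cyclase, went the other way, with 1.78, 1.52 and 1.49 CPM in Ctrl and 1.14, 9.39 and 16.1 CPM in He, where He 1 lay below Ctrl (DESeq2 adjusted p = 0.0286, lost without Ctrl 1, Ctrl 2, He 2, He 3 or Ho 1, up to 0.357 without He 3). In the degradation of other glycans 7 of 20 genes (35.0%) had all He fish below all Ctrl fish. The lysosomal fucosidase FUCA1 had 6.84, 6.36 and 7.35 CPM in Ctrl and 4.90, 4.01 and 3.69 CPM in He, and FUCA2 had 4.36, 4.21 and 4.23 CPM in Ctrl and 1.99, 2.60 and 1.78 CPM in He. Gusb, the lysosomal glucuronidase, had 6.93, 8.16 and 4.98 CPM in Ctrl and 3.55, 3.61 and 4.14 CPM in He. None of these enzymes passed DESeq2 (adjusted p = 0.301, 0.405 and 0.11). PLCB4, a phospholipase C on chromosome 20, had 4.0, 3.00 and 1.63 CPM in Ctrl and 1.07, 1.19 and 0.700 CPM in He and fell by 1.54 ± 0.37 (DESeq2 adjusted p = 0.04, lost on leaving out any library but Ctrl 3, up to 0.548 without Ctrl 1).

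Of 446 GO terms of the same size range, 257 had a median below 0 and 189 above, from -0.93 to 0.50. At the upper end stood DNA-mediated transposition (0.50), cytoplasmic translation (0.45), DNA integration (0.42) and the tri-snRNP of the spliceosome (0.40). All 32 tested genes of the cytosolic large ribosomal subunit had a positive log2 fold change, with a median of 0.39, which was 0.22 relative to all loci under TPM and 0.12 without both Ctrl 1 and Ctrl 2. zc3h15, a protein listed under cytoplasmic translation, had 10, 10.4 and 10.8 CPM in Ctrl and 13.9, 19.2 and 15 CPM in He (DESeq2 adjusted p = 0.103). At the lower end stood the calcium-dependent cysteine endopeptidases, the calpains. Of 24 loci 11 (45.8%) were lower and 1 (4.17%) higher at an unadjusted p under 0.05, beside 6.30% and 4.13% of all loci, and the median of -0.93 was 0.18 without both Ctrl 1 and Ctrl 2. CAPN2 ABG768_001789 had 24.0, 8.83 and 1.49 CPM in Ctrl and 0.497, 1.15 and 0.255 CPM in He and fell by 4.10 ± 0.99 (DESeq2 adjusted p = 0.000696, 0.121 without Ctrl 1), in the opposite direction to the muscle calpain CAPN3 ABG768_014187. Tight junction, intermediate filament and homophilic adhesion terms each had a median of -0.45. They held 11 of 34 (32.4%), 10 of 46 (21.7%) and 10 of 40 (25%) loci lower at an unadjusted p under 0.05, again beside 6.30%, and 1, 4 and 0 loci higher, which for intermediate filaments was 8.70% beside 4.13%. Without both Ctrl 1 and Ctrl 2 their medians were -0.19, -0.27 and -0.04.

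By position, chromosome 5 stood out among the 24 chromosomes, in an examination made after values were seen. Of its 816 tested loci 134 (16.4%) had all He fish below all Ctrl fish, beside 8.32% of all loci, and 107 (13.1%) were lower at an unadjusted p under 0.05, beside 6.30%. The median log2 fold change was -0.17. Relative to the mean of the 6 Ctrl and He fish, the median deviation of chromosome 5 loci was 0.11, 0.10 and 0.12 in Ctrl 1 to 3. It was -0.06, 0.00 and -0.17 in He 1 to 3. Ctrl fish were alike there, Ctrl 3 included, and He 3 was lowest. All 11 windows of 5 Mb with at least 20 tested loci had a median below 0, and 9 were below -0.1, whereas 106 of 206 windows over the genome were below 0 and 39 below -0.1. On chromosomes 6 and 8 all 8 windows were below 0 as well, with 6 and 2 below -0.1. On chromosome 20, 7 of 8 were below 0 and 5 below -0.1. The chromosome 5 median was -0.16 relative to all loci under library totals and -0.09 under TPM, and -0.18 without both Ctrl 1 and Ctrl 2. Over the 203 chromosome 5 loci above 10 CPM it was -0.05, where the other chromosomes had -0.03 to 0.20. Chromosomes 24, 6 and 20 followed, with medians of -0.15, -0.13 and -0.10, and only chromosomes 5, 20 and 24 had all He fish below all Ctrl fish in the median deviation. Within 1 Mb of runx2b on chromosome 20, 30 loci were tested, 1 was higher and 4 lower at an unadjusted p under 0.05 and none was called by DESeq2. Within 10 Mb, DESeq2 called 3 of 287 (1.05%), all lower, beside 1.19% of all loci. They were GFUS, dspb and PLCB4, named after their values were seen.

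**Figure D5:**
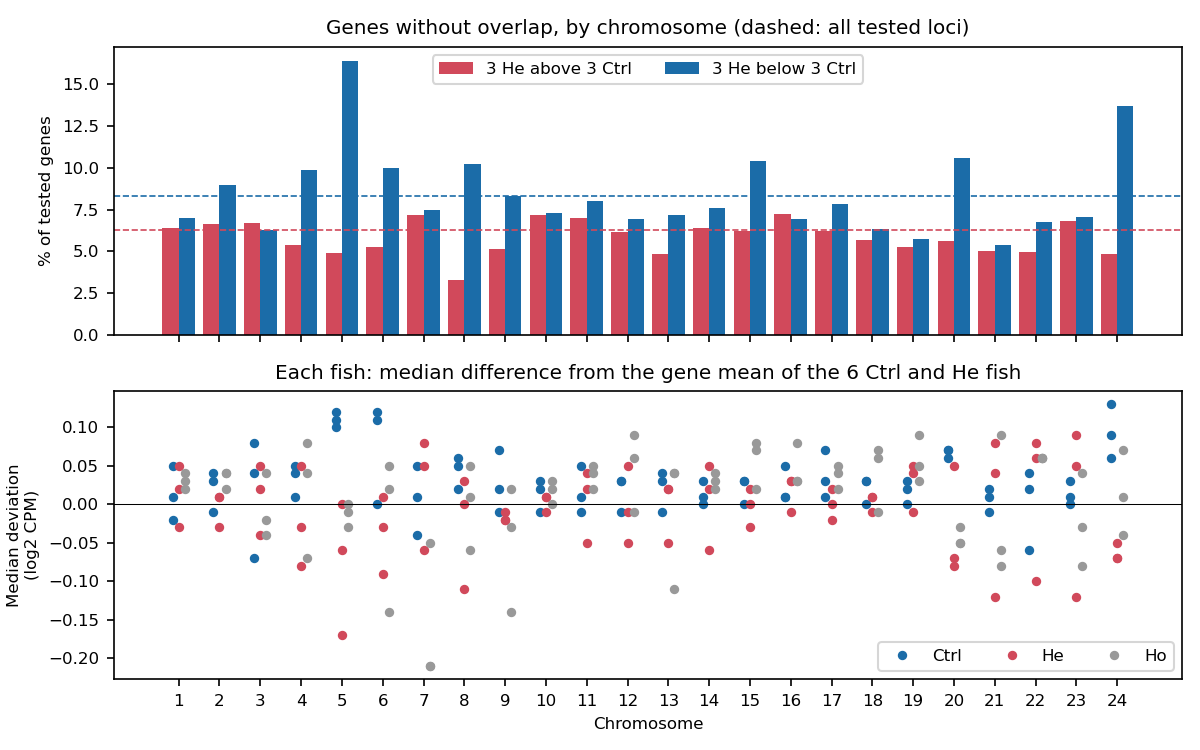
Share of tested loci on each chromosome without overlap between He and Ctrl, higher and lower. Below it is the median deviation of each chromosome's loci from the mean of the 6 Ctrl and He fish, 1 point per fish. Chromosome 5 has 16.4% of loci lower without overlap. Assembled loci, with 12.7% higher, are not drawn.

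Loci assembled from the reads, which are absent from the genome annotation, leaned the other way. Of 824 tested, 12.1% were higher in He at an unadjusted p under 0.05, beside 4.13% of all loci, and 5.58% were lower, beside 6.30%. By DESeq2 29 rose (3.52%, beside 0.628% of all loci) and 17 fell (2.06%, beside 1.19%). Their median log2 fold change was 0.33, which was 0.34 relative to all loci under library totals and 0.19 under TPM. It was 0.16 without both Ctrl 1 and Ctrl 2. The median deviation of assembled loci was -0.32, -0.11 and 0.04 in Ctrl 1 to 3 and 0.20, 0.22 and 0.02 in He 1 to 3. The groups overlapped, with He 3 below Ctrl 3. A group of 14 assembled loci described as sorting nexin-25, an endosomal protein, carried part of the lean towards He and was picked after its values were seen. Summed over the 14, the Ctrl fish had 3.38, 1.34 and 9.36 CPM, the He fish 2.06, 54.8 and 94.3 CPM, and the Ho fish 63, 42 and 78.7 CPM. He 1 thus lay within the wild-type range, He 2 within the range of the homozygotes and He 3 above it. DESeq2 called 7 of 13 tested loci higher, the median log2 fold change was 5.95 (5.91 with loci absent from Ctrl set at their bound), and it was positive under every scaling. MSTRG.3376, the one of these in the stable set, had 0, 1 and 0 counts in Ctrl 1 to 3 and 2, 123 and 212 counts in He 1 to 3. He 1 was thus close to the Ctrl fish. The groups had 1 and 337 counts in all, a ratio of 374 (95% exact interval 66.7 to 14824, which covers counting error only). In all, 14 loci had at most 5 counts in each Ctrl fish and He 1 and at least 20 in each other fish, 12 of them assembled and 8 described as sorting nexin-25. Myh4 MSTRG.3895, with 4 counts in He 1, was among the 14, as was the assembled myosin locus MSTRG.3898. The 14 loci were picked by that split of the fish, which is not the split by runx2b genotype. Loci that follow other splits were not counted by this rule, and what the picked loci share was not tested.

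A further set of loci was nearly absent from a whole group. With at most 3 counts over Ctrl and at least 30 over He there were 37 loci, of which 20 were assembled, but only 4 had over 3 counts in every He fish. Among these were TASOR (chromosome 10, 29045133 to 29093827), named for a subunit of the HUSH silencing complex, with none in Ctrl and 49, 50 and 95 counts in He 1, He 2 and He 3, and PHAX (chromosome 10, 30405098 to 30427422), named for an export adapter of small nuclear RNA, with none in Ctrl and 25, 41 and 6 counts in the He fish. DESeq2 called both higher (adjusted p = 0.0145 and 0.00594), calls lost without Ctrl 1 (0.13 and 0.105), Ctrl 2 (0.118 and 0.0884) or He 1 (0.158 and 0.0505), that of TASOR also without He 2, He 3 or Ho 3 (up to 0.219), and against 3 counts set for the whole Ctrl group they were at least 71.8-fold and 26.6-fold higher. These folds describe single copies and not the genes, because each has a same-named copy on chromosome 5.

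The copy of TASOR on chromosome 5 (31078084 to 31127071) had 5.02, 4.93 and 5.94 CPM in Ctrl and 1.78, 2.16 and 0 CPM in He, the reverse of the chromosome 10 copy at 0 in Ctrl and 3.48, 2.20 and 6.05 CPM in He. Summed over both copies TASOR had 5.02, 4.93 and 5.94 CPM in Ctrl and 5.26, 4.36 and 6.05 CPM in He, ranges that overlapped. For PHAX the sum was 4.36, 4.89 and 4.68 CPM in Ctrl and 4.62, 3.61 and 4.39 CPM in He, again overlapping. gmppb, which makes GDP-mannose, had counts on chromosome 10 in He 3 alone of the He fish, at 5.35 CPM, and He 3 alone was at 0 on the chromosome 5 copy, while the sum was 6.84, 6.90 and 4.01 CPM in Ctrl and 4.26, 6.52 and 5.35 CPM in He. These genes belong to a stretch between 28 and 32 Mb of both chromosomes, examined after its values were seen, that holds 40 pairs of loci with the same name and the same protein match. Of the 37 pairs with a count, 11 had the same count on both copies in all 9 libraries. Reads of such copies cannot be placed with certainty. Summed over both copies, 4 of the 37 pairs had all He fish above all Ctrl fish, beside 6.28% of all loci. All He fish lay below in 4 pairs, beside 8.32% of all loci. Of these WWTR1, a transcriptional coactivator of the Hippo pathway, had 15.2, 18 and 18.5 CPM in Ctrl and 22.5, 22.3 and 23 CPM in He, and Sirt7, a nuclear deacylase, had 1.78, 1.43 and 1.49 CPM in Ctrl and 0.853, 0.705 and 0.636 CPM in He. Sirt7 was among the 11 pairs with the same count on both copies in all 9 libraries, so its sum adds nothing to either copy. Without that stretch, chromosome 5 kept a median log2 fold change of -0.18 over 779 loci, with 16.4% lower without overlap.

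In the other direction 110 loci had at most 3 counts over He and at least 30 over Ctrl, and 98 of these had at most 3 in Ctrl 3. They included the epithelial claudins CLDN4 and CLDN23, the keratins krt13 and krt18, and grhl2, a transcription factor of epithelia. BCL11B (ABG768_014005), a transcription factor of skin, nerve and T cells, counted 30, 35 and 1 in the Ctrl fish against 0, 1 and 1 in the He fish, so Ctrl 3 was as low as He.

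Beside these values, the Ho fish lay mostly between. Of the 15 named genes higher in He, the Ho mean lay between the Ctrl and He means in 14, and of the 15 lower in all 15. Of the 87 DESeq2 calls higher in He, it lay between in 63 and beyond the He mean in 23. Of the 165 lower, it lay between in 162 and beyond the He mean in 3. Both comparisons use the same Ctrl fish, and the genes were chosen for their He values. MYH1s ABG768_023108 had 1379, 2184 and 763 CPM in Ho 1 to 3, PFKFB3 had 7.30, 4.88 and 31.8 CPM and SLC25A22 had 2.84, 1.32 and 1.95 CPM. In each, Ho fish were on the He side of every Ctrl fish. Gimap9 was the exception by its mean among the 15 named genes higher in He, with 5.95, 14.3 and 6.92 CPM in Ho. SLC16A9, at 1.61, 3.16 and 8.53 CPM in Ho, reached from the Ctrl level into the He range.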

How the data were processed

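RNA-seq of trunk muscle and myoseptal tissue was analysed from 1 library per fish, 3 fish per genotype. As the methods state, the authors trimmed reads and aligned them to the C. alburnus genome; the aligner and counter are not given in the sources used here. The authors deposited estimated counts per locus, 94.3% of them whole, which were rounded here, and TPM values scaled to a common sum, used as an alternative; the deposited FPKM were not used. Symbols, KEGG and GO terms came from the deposited annotation, where symbols are best protein matches, and positions from RefSeq's assembly ASM4018292v1 by locus tag (28228 loci).

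Counts were filtered by filterByExpr, scaled by TMM and fitted with edgeR 4.0.16 (glmQLFit, robust; all 9 libraries, contrast He minus Ctrl), with SE as the log2 fold change over the square root of F. DESeq2 1.42.0 and limma 3.58.1 (log2 of TPM plus 1 or 0.1) were alternatives, in R 4.3.3; tables and figures used Python 3.11.15. P-values of edgeR and limma were adjusted by Benjamini and Hochberg over all loci tested. Those of DESeq2 were adjusted in the same way over the loci left by its default filters, 13848 in the fit of all 9 libraries. Replicates came from separate fish. The scripts' models were tested on simulated data. Named genes were runx2b and the 15 with the smallest p in each direction that had no overlap, a symbol and a mean of at least 1 CPM. Added were the 10 DESeq2 calls without overlap that changed most in each direction. Larger DESeq2 changes with overlap were left out by that rule. Up to 4 members of each set with the smallest p were also named. Other alternatives were library totals, RLE, other filters, only 6 libraries, the replicate block and each library left out. The comparison, lists and sets were chosen with earlier results of these data known.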

Additional observations from a re-analysis of the deposited data

How the results depend on the processing

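The edgeR DEG count of 0 held under every scaling, filter, TPM setting, the replicate block and each library left out, while DESeq2 gave 77. Loci higher in He at an unadjusted p under 0.05, 610 as reported, numbered 135 with library totals, 102 with TPM plus 1 and 97 with TPM plus 0.1, and 422 to 1359 on leaving out a library. Those lower, 930 as reported, numbered 1922 with library totals, 613 with at least 10 counts in every library, 2206 with TPM plus 1 and 2196 with TPM plus 0.1, 525 to 1373 on leaving out a library and 326 without both Ctrl 1 and Ctrl 2, an alternative chosen after seeing the data that keeps 1 Ctrl fish, assumed to vary like the other groups. DESeq2 calls, 87 higher and 165 lower as reported, ranged from 17 to 522 and from 7 to 467 on leaving out a library, and were 10 and 2 without both Ctrl fish. With the replicate block the counts were 0 DEGs, 580 higher and 887 lower; fish with the same number did not deviate together (correlations of -0.13, 0.1 and -0.1), so the numbers do not pair them. No named gene past a threshold changed sign under any setting. Of 62 set medians, 18 changed sign with library totals, 24 with TPM plus 1 and 16 without both Ctrl fish. The cause of these shifts was not tested.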
